A study of Mus musculus with 20 samples.

Results

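The gene group described here holds nuclear genes whose names place them in the last 3 steps of mitochondrial respiration: complex III, cytochrome c, complex IV and ATP synthase. Genes were taken by name, not by value, as every symbol that starts with Uqcr or Atp5 (other than Atp5sl), cytochrome c1 (Cyc1), cytochrome c (Cycs) and 14 structural Cox4 to Cox8 subunits. The paralogs Cox6b2, Cox7b2, Cox8b and Cox8c were not taken. Pseudogene and Rik entries were left out. Subunit genes with other names, such as Ndufa4 and Usmg5, were not taken either, so the group is not the full set of subunits. This gave 40 of the 29671 genes in the count table. By name, 9 were counted with complex III, 1 is cytochrome c, 14 were counted with complex IV and 16 with ATP synthase. All 40 passed the filter on low counts, so none is missing from the tests.

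Complex III passes electrons from ubiquinol to cytochrome c, a small soluble carrier, and complex IV passes them from cytochrome c to oxygen. Both pump protons out of the mitochondrial matrix, and ATP synthase lets the protons flow back through a rotating ring to make ATP. A few subunits are encoded by mitochondrial DNA and all others by nuclear genes. Neurons depend on this pathway for most of their ATP, which pays for ion pumping and synaptic transmission.

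Amygdala RNA of 20 male C57B6 mice, killed on postnatal day 84, was sequenced, from a brain region known for its part in threat learning. The mice fell into 4 groups by generation and lineage: the F1 stress and F1 no-stress groups, and the F2 stress and the F2 no-stress groups. Each held 5 mice that the labels call biological replicates. F1 and F2 mice descended from animals put through chronic unpredictable stress, in adolescence by the series title, or from animals without it. The sampled mice themselves were behaviourally naive, came from an in-house colony of Taconic origin and are given no engineered allele in the labels. Tissue was taken from coronal sections as 1.2 mm punches of both sides, so a sample can hold neighbouring tissue. Neither litter, sire nor batch is given. The p-values rest on the spread between mice within groups, estimated over all 20 libraries together.

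Library totals were nearly equal, at 13654890 to 13714805 counts, and 16727 genes were tested. Levels are given as CPM, counts scaled by each library's total times its TMM factor. All 10 amygdala marker genes were detected. Rspo2 was as low as 0.909 CPM and Cyp26b1 as low as 3.93 CPM in a library, against means of 10.9 and 43.3 CPM. Markers of striatal medium spiny neurons, a cell type of the neighbouring striatum, varied widely. Their summed level over 12 genes was 1604 to 4190.0 CPM in F1 stress mice and 2093 to 7359 CPM in F1 no-stress mice. The same sum was 797 to 8028 CPM in F2 stress mice and 2328 to 7242 CPM in F2 no-stress mice. Markers of pallial excitatory neurons varied widely too. Over 8 genes they summed to 175 to 1173 CPM in F1 stress mice and 313 to 1080 CPM in F1 no-stress mice. In F2 they summed to 380 to 1188 CPM in stress mice and 75.4 to 1175 CPM in no-stress mice. Striated muscle markers summed to at most 8.52 CPM in any library. In bulk tissue, fewer cells of a type and less RNA per cell cannot be told apart.

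The 40 genes together took 0.451 to 0.608% of the TMM-scaled total of a library. Levels were compared between genes as CPM per kilobase of transcript, using the median transcript length of each gene. The catalytic core of ATP synthase led. Atp5b, the catalytic beta subunit, had a mean level of 495 CPM per kb over the 20 libraries (range 408 to 573), and Atp5a1, the alpha subunit that alternates with it, had 301 CPM per kb (256 to 346). Between them stood Cox4i1, the ubiquitous form of the largest nuclear subunit of complex IV, with 342 CPM per kb (265 to 455). In complex III the leader was Uqcrh, the hinge protein that touches cytochrome c1, with 240.2 CPM per kb (174 to 287), and the small subunit Uqcrq was lowest with 44.2 CPM per kb (31.1 to 72.1). Cycs had 45.1 CPM per kb (38.9 to 55.9). The lowest ATP synthase gene was Atp5s, also known as coupling factor B, with 9.04 CPM per kb (7.56 to 10.6). The ranges of Atp5b, Cox4i1 and Atp5a1 overlap their neighbour's in this order, as do those of most genes in the middle.

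**Figure D1:**
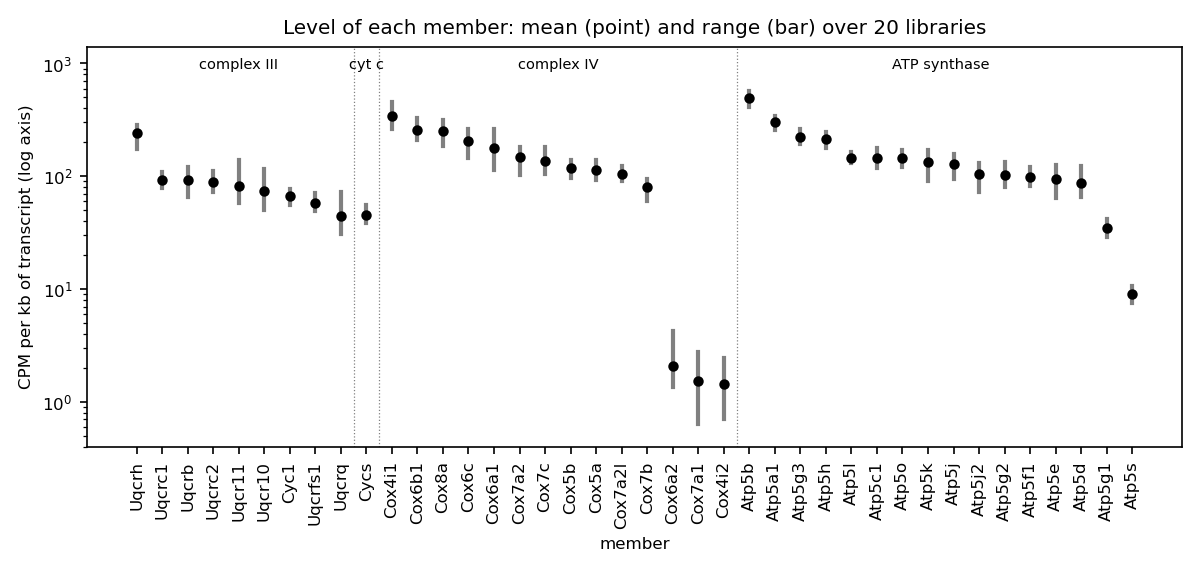
Level of each of the 40 genes in CPM per kb of transcript (log axis), grouped by complex and ordered by mean; points are means and bars the range over 20 libraries. Most genes lie in a band of similar level, while Cox4i2, Cox7a1 and Cox6a2 lie at 1.44, 1.52 and 2.07 CPM per kb, far below their paralogs.

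The tissue isoforms of complex IV differed widely in level. Cox4i2, the lung- and hypoxia-associated form of subunit 4, was at 0.423 ± 0.155% (SD, n = 20) of Cox4i1 per kb. Cox6a2, the heart and muscle form of subunit 6a, was at 1.15 ± 0.242% of Cox6a1. Cox7a1, the heart and muscle form of subunit 7a, was at 1.03 ± 0.378% of Cox7a2. The third subunit 7a relative, Cox7a2l, was at 72.2 ± 6.73% of Cox7a2. Of the 3 genes that encode the same mature c subunit of the ATP synthase ring, Atp5g3 was highest. Relative to Atp5g3 per kb, Atp5g2 stood at 46.3 ± 7.91% and Atp5g1 at 15.7 ± 1.92%. The order of Atp5g1 and Atp5g2 depends on the length used, 2675.5 nt for Atp5g1 against 586 nt for Atp5g2 and 718.5 nt for Atp5g3. In CPM without length scaling, Atp5g1 averaged 93.3, above Atp5g2 with 60.2 and below Atp5g3 with 161. Reads of Atp5g2 may also be shared with its pseudogene copies, described next, so its ratio to Atp5g3 is uncertain.

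Respiratory genes have many processed pseudogenes, and how the authors counted multiply mapping reads is not given in the sources used here. Pseudogenes of at least 95% identity over 200 bases stood in the table for 14 of the 40 genes. For 8 genes their summed level passed 5% of the parent's own level. Atp5l, the g subunit of ATP synthase, and Atp5g2 had copies summing to 124% and 122% of their own CPM, so the split of reads between parent and copy is uncertain for both. The Atp5g2 copy Gm10175 is identical over 645 bases and averaged 50.5 CPM, against 60.2 CPM for Atp5g2 itself. The share was 22.8% for Cycs, 15.7% for Atp5g1, 14.7% for Cox6c, 12.9% for Cox7a2l, 10.9% for Atp5f1 and 6.57% for Cox7c. Uqcrh, Uqcrc2, Cox5a and Atp5s had no such copy, and for Uqcrb and Atp5c1 the copies summed to 1.65% and 0.0171%.

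Within groups the 40 genes varied together. Over the 780 pairs, the median correlation of deviations from the group means across 20 libraries was 0.63, and 94.5% of pairs were above 0. These libraries share depth, dissection and base composition with all genes, so the correlations are a description. The closest to the median of the others were Cox6b1 and Cox7a2l (both r = 0.94) and Cox8a (r = 0.93), each counted with complex IV here. The most independent were Atp5s (r = 0.05), Cox4i2 (r = 0.24) and Cycs (r = 0.26). Most of the group was high or low together in single mice. In F1 stress mice 1 to 5, 12, 4, 1, 4 and 36 of the 40 genes stood above their own mean over all libraries, against 26, 37, 33, 37 and 24 in F1 no-stress mice 6 to 10. In F2 stress mice 11 to 15 the counts were 29, 22, 19, 4 and 38, against 24, 12, 34, 13 and 2 in F2 no-stress mice 16 to 20. F1 stress mouse 5 stood with the F1 no-stress mice and apart from its own group. In F2 the lowest mice, stress mouse 14 and no-stress mouse 20, came from opposite lineages.

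**Figure D2:**
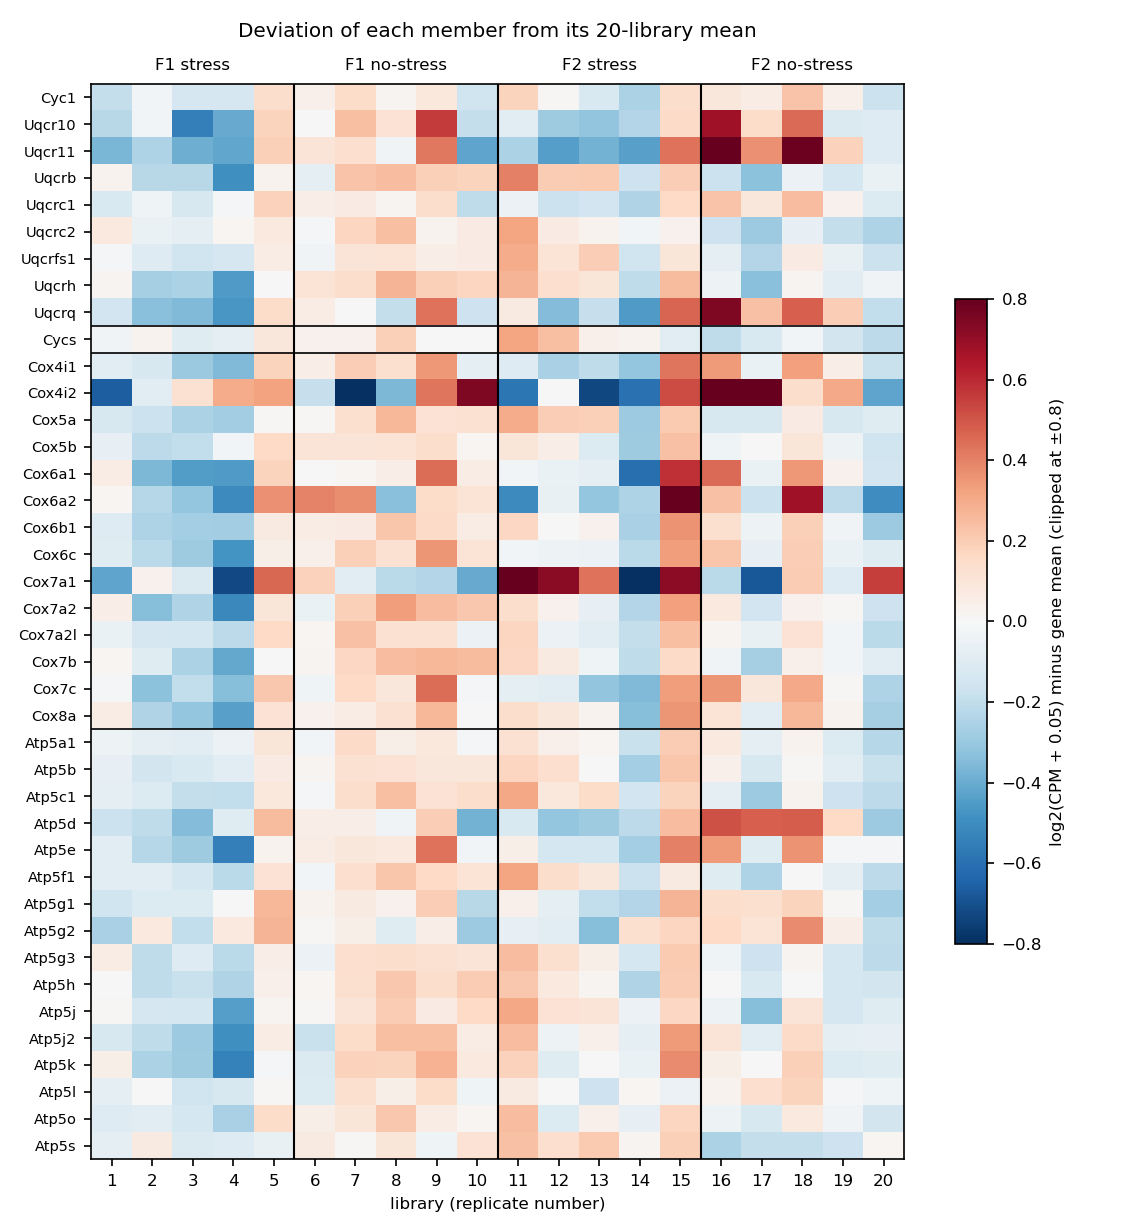
Deviation of each gene (lines, grouped by complex) from its own mean over 20 libraries on a log2 CPM scale, with libraries in columns by group; red is above and blue below the mean. The columns of 4 of the 5 F1 stress mice are mostly blue while F1 stress mouse 5 is mostly red, and the F2 columns differ more between mice than between lineages.

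Transcription of these genes is known to use the factors NRF1 (nuclear respiratory factor 1), GABP of the ETS family and YY1. Promoters from RefSeq (GRCm38.p6), running from 250 bases before to 50 bases after the annotated start, were at hand for 31 of the 40 genes. The core of the NRF1 consensus, searched on both strands, was present in 6 of the 31 (19.4%), against 2.56% of all 27025 genes with a promoter and 3.54% of protein-coding ones. The ETS word CCGGAAG on either strand was present in 10 of 31 (32.3%), against 9.93% of all genes and 12.9% of protein-coding ones. The YY1 word ATGGCGG was present in 2 of 31 (6.45%), against 4.69% of all genes and 6.05% of protein-coding ones. A first search with any base at the sixth position of the NRF1 core gave 8 of 31, against 5.19% of all genes. The motifs reported were chosen after the first matches were seen, so these shares are a description. None of the 3 motifs contains another, and a match is of letters only, not a measured binding site.

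The NRF1 matches are shown with 10 bases on either side, because NRF1 is the factor best known for these genes and the matches include Atp5c1, called in a comparison below. Each is given 5′ to 3′ along the gene with its strand, and capitals mark the motif or its reverse complement.
Atp5c1 chr2:10080430-10080459 minus: ctgagctcccGCGCACGCGCactgagtccc
Atp5g2 chr15:102671070-102671099 minus: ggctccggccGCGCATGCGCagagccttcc
Atp5k chr5:108434430-108434459 minus: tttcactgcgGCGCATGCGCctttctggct
Atp5o chr16:91931602-91931631 minus: gctggcgcgcGCGCGTGCGCtctggcgcca
Cox6a1 chr5:115349101-115349130 minus: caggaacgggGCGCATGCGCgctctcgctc
Uqcrc1 chr9:108936668-108936697 plus: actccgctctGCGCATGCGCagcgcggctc
The Atp5c1 match lies in 1 of 2 annotated promoters of that gene. The 250 bases before the start of Uqcrh and of Atp5s, also called below, differ in composition, at 45.6% and 70.8% G and C. Capitals mark the ETS word in reverse complement, which in Uqcrh begins 10 bases before the start, and the Atp5s window holds none of the 3 motifs.
Uqcrh chr4:116075071-116075320 minus: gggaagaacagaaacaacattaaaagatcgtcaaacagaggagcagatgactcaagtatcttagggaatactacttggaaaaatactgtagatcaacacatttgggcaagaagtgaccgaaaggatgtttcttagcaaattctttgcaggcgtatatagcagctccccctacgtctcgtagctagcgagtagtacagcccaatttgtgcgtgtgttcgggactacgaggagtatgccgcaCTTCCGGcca
Atp5s chr12:69724695-69724944 plus: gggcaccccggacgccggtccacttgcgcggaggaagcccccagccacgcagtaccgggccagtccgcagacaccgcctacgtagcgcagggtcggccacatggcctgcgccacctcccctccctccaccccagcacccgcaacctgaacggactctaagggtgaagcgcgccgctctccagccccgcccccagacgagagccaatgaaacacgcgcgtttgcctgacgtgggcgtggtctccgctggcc
The matching promoter of Atp5c1 is shown whole as well, with the same NRF1 match in capitals near its start.
Atp5c1 chr2:10080433-10080682 minus: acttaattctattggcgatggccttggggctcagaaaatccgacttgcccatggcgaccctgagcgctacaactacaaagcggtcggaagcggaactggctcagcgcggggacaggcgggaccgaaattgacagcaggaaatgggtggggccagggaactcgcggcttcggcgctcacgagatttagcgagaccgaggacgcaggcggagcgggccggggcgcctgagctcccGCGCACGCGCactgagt
Of the 5 genes whose lineage effect differed between generations, Atp5c1 held the NRF1 motif, Uqcrh the ETS word, and Atp5s and Cox5a none, while Uqcrb had no promoter entry.

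The first comparison set F1 stress against F1 no-stress mice. Of the 40 genes, 38 had a lower mean estimate in F1 stress mice, with a median log2 fold change of −0.23, a level 14.7% lower. Over all 16727 genes the median was 0.00 and 49% were below 0. The median was −0.26 over 9 complex III genes, −0.27 over 14 complex IV genes and −0.17 over 16 ATP synthase genes. No gene passed the adjusted threshold of 0.05 in the edgeR quasi-likelihood test, and neither did any of the 16727 genes (0% called, with 6.16% at an unadjusted p below 0.05). The smallest adjusted p among the 40 was 0.739. At an unadjusted p below 0.05 there were 16 of the 40, all lower, against 3.52% of all genes that were lower at that level, and DESeq2 and limma-voom called 0 of the 40. The groups did not overlap for 3 of the 40, Uqcrh, Cox5a and Cox7b, all lower in F1 stress mice, against 0.568% of all genes.

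Other gene lists also had estimates below 0 in F1. The median log2 fold change was −0.20 for 36 complex I subunits (35 below 0), −0.25 for the 6 mitochondrially encoded subunits of the same complexes (all 6 below 0) and −0.21 for 79 cytosolic ribosomal proteins (77 below 0). It was −0.81 for the 12 striatal markers and −0.23 for 11 microglia markers, all below 0. It was 0.04 for 10 general neuron markers and −0.02 for 10 astrocyte markers. For 8 pallial excitatory neuron markers it was 0.12, with 7 above 0 and 1 below. No gene of any of these lists was called, and their part in the lower estimates of the 40 genes was not tested. Mitochondrially encoded genes took 6.31 to 8.54% of the TMM-scaled total in F1 stress libraries, against 7.46 to 10.1% in F1 no-stress libraries. Without F1 stress mouse 5 the median of the 40 was −0.27, and with 1 surrogate variable in the model it was −0.10.

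The second comparison set F2 stress against F2 no-stress mice. Here 25 of the 40 genes had a higher and 15 a lower mean estimate, with a median log2 fold change of 0.08, against 0.00 over all genes, of which 50.2% were above 0. Atp5s, Uqcrc2 and Cycs rose (3 of 40, edgeR adjusted p below 0.05) and 0 fell, a share close to the 7.92% of all genes called (2.64% higher and 5.28% lower). The complexes were spread about 0, with medians of −0.06 for complex III, 0.05 for complex IV and 0.11 for ATP synthase. Groups did not overlap for 2 of the 40, Atp5s and Uqcrc2, both higher, against 2.25% of all genes. The count of calls was 0 without F2 stress mouse 11, F2 no-stress mouse 16 or F2 no-stress mouse 17, 1 without F2 stress mouse 12, 6 without F2 stress mouse 15 and 9 without F2 stress mouse 14. The share of all genes called in these fits is not given here. In F2 the list medians were −0.15 for the striatal markers, 0.04 for general neuron markers and −0.05 for microglia markers, with no gene of these 3 lists called by edgeR. Of 10 endothelial cell markers 5 were below 0 and 3 fell, against 5.28% of all genes called lower: Egfl7 with a log2 fold change of −0.57 (adjusted p = 0.0107), Tie1 with −0.58 (0.0287) and Cldn5 with −0.49 (0.0411), none of them called with the GC and length offset. The endothelial list summed to 184 to 337 CPM in F2 stress mice and 242 to 284 CPM in F2 no-stress mice. The part of these lists in the F2 values of the 40 genes was not tested. The median of the 40 was 0.00 without F2 stress mouse 15, 0.03 without F2 no-stress mouse 20, 0.13 without F2 no-stress mouse 18 and 0.14 without F2 stress mouse 14.

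**Figure D3:**
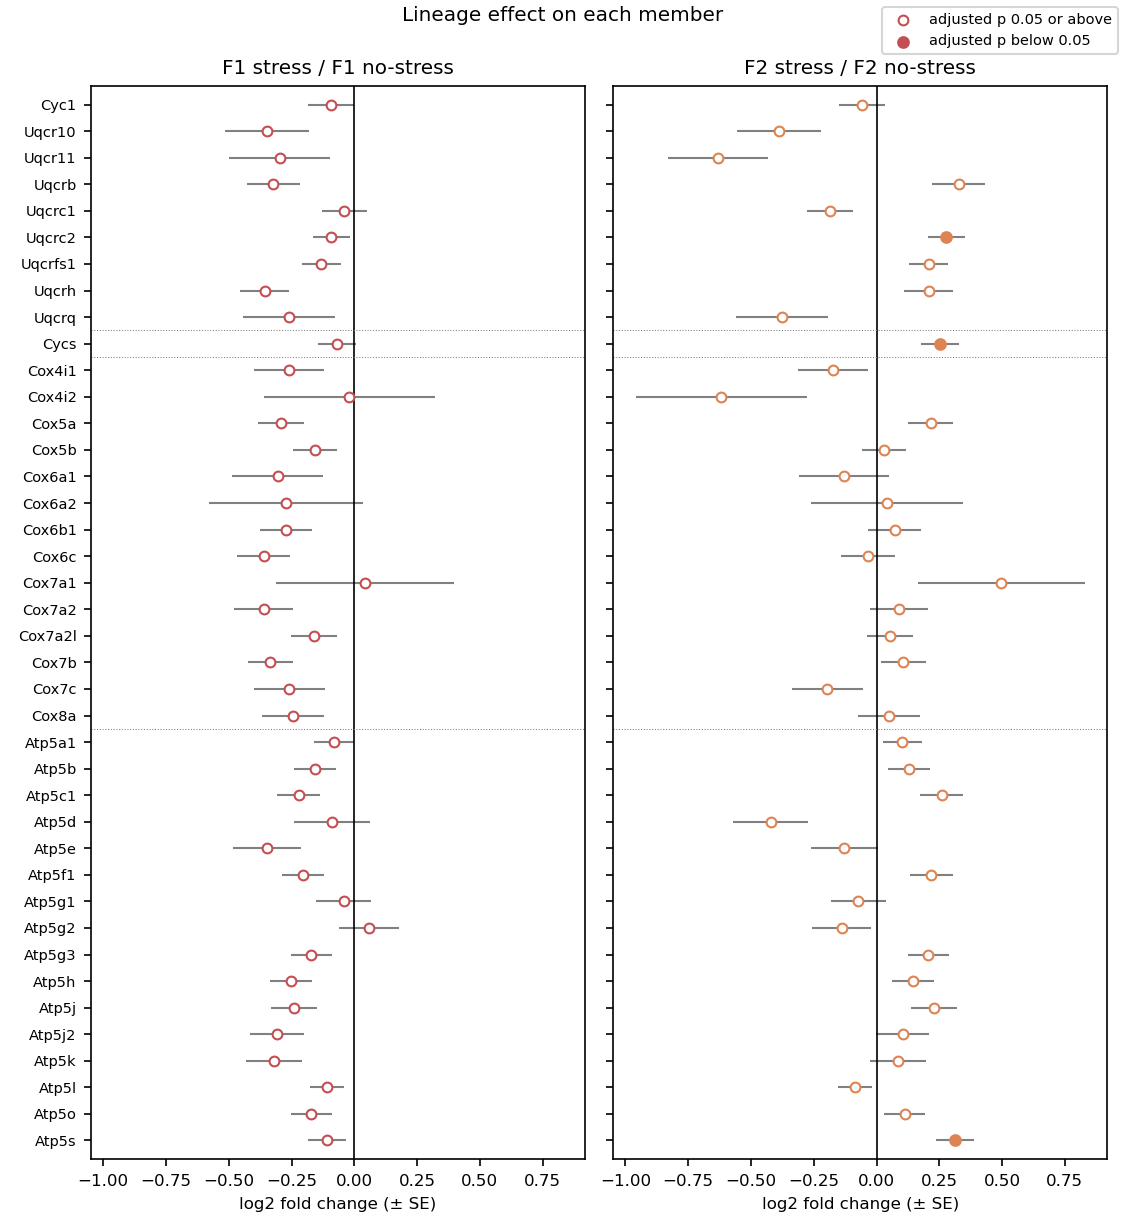
Log2 fold change (± SE) of each gene for F1 stress over F1 no-stress (left) and F2 stress over F2 no-stress (right), grouped by complex; filled points have an adjusted p below 0.05. On the left 38 of 40 points lie below 0 and none is filled, and on the right the 3 filled points, Uqcrc2, Cycs and Atp5s, lie above 0.

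The third comparison asked whether the lineage effect differed between generations, by the difference of the F2 and F1 log2 fold changes in the same model. The effect was higher in F2 than in F1 for 5 genes, Uqcrb, Uqcrh, Atp5c1, Cox5a and Atp5s, and lower for 0, against 0.837% of all genes called higher and 2.52% called in either direction. The median difference over the 40 was 0.30, against −0.01 over all genes, and 32 of the 40 were above 0, against 49.4% of all genes. The striatal medium spiny neuron markers had a median difference of 0.70, with 12 of 12 above 0 and 0 called by edgeR, and their part in the difference of the 40 genes was not tested. The median was 0.04 for complex III, 0.30 for complex IV and 0.33 for ATP synthase. All 4 groups enter this difference, so it is not independent of the first 2 comparisons. The count of 5 depended on single mice: it was 0 without F1 stress mouse 2, 3 or 4, F1 no-stress mouse 7, 8 or 10, F2 stress mouse 11, 12 or 13, or F2 no-stress mouse 16 or 17. It was 1 without F2 no-stress mouse 19, 2 without F1 no-stress mouse 9, 9 without F2 no-stress mouse 18, 11 without F1 no-stress mouse 6 and 14 without F2 stress mouse 14. For these fits too the share of all genes called is not given here. With an offset for GC content and transcript length no gene was called.

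In complex III the F2 estimates lay on both sides of 0. Uqcrb, a small subunit near the ubiquinone pocket (chr13:66900617-66905378, minus strand, GRCm38), had 49.8, 41.9, 42.0, 34.8 and 49.8 CPM in F1 stress mice, against 46.6, 57.4, 57.9, 55.9 and 55.3 CPM in F1 no-stress mice. In F2 it had 64.7, 56.4, 56.6, 43.6 and 56.2 CPM in stress mice, against 43.4, 39.0, 47.3, 44.3 and 47.1 CPM in no-stress mice. Stress mice thus lay mostly below no-stress mice in F1 and mostly above them in F2, with 2 F1 stress mice above the lowest F1 no-stress mouse and stress mouse 14 among the no-stress values in F2. The log2 fold change was −0.32 ± 0.11 (SE) in F1 (adjusted p = 0.739) and 0.33 ± 0.11 in F2 (adjusted p = 0.0578), and the difference was 0.65 ± 0.15 (adjusted p = 0.0324). With the GC and length offset the difference was 0.45 (adjusted p = 0.150).

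Uqcrh, the hinge protein (chr4:116066965-116075071, minus strand), had 115, 93.9, 94.6, 82.5 and 112 CPM in F1 stress mice, against 121, 125, 136, 129 and 127 CPM in F1 no-stress mice. Every F1 stress value was below every F1 no-stress value. In F2 it had 136, 124, 121, 97.8 and 134 CPM in stress mice, against 109.9, 89.6, 114, 106 and 110.5 CPM in no-stress mice, and stress mouse 14 alone lay within the no-stress range. The F1 estimate was −0.36 ± 0.10 (95% interval −0.55 to −0.16, adjusted p = 0.739), the F2 estimate 0.21 ± 0.10 (adjusted p = 0.187) and their difference 0.57 ± 0.14 (adjusted p = 0.0396; 0.146 with the offset).

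Uqcrc2, core protein 2 of the matrix face of the complex (chr7:120635176-120659524, plus strand), rose in F2 stress mice. It had 209, 176, 172, 165 and 172 CPM in F2 stress mice, against 149.8, 138, 161, 147 and 142 CPM in F2 no-stress mice, and the groups did not overlap. The log2 fold change was 0.28 ± 0.07 (adjusted p = 0.0258), and with the offset 0.13 (adjusted p = 0.430). The call was lost without F2 stress mouse 11 or 12 or F2 no-stress mouse 16 or 17, with adjusted p-values up to 0.0952. In F1 its mean was 169.5 ± 8.22 CPM in stress mice and 181 ± 13.01 CPM in no-stress mice (SD, n = 5 each), with a log2 fold change of −0.09 ± 0.07. Uqcrc1, the partner core protein, had F2 means of 145 ± 16.2 CPM in stress mice and 165 ± 16.5 CPM in no-stress mice, a log2 fold change of −0.19 ± 0.09 that was not called.

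The small subunit Uqcr11 had the lowest F2 estimate of all 40 genes. It had 29.2, 25.7, 26.8, 25.8 and 47.0 CPM in F2 stress mice, against 62.4, 44.8, 60.03, 39.6 and 32.5 CPM in F2 no-stress mice. All stress mice but mouse 15 lay below every no-stress mouse, and mouse 15 lay among them. The log2 fold change was −0.63 ± 0.20 (adjusted p = 0.0559; −0.28 with the offset). DESeq2 gave an adjusted p of 0.0264 and thus called it, as did the model with 1 surrogate variable (0.0367). Of the other genes of the complex, F2 estimates were −0.39 for Uqcr10, −0.38 for Uqcrq and −0.06 for Cyc1, which carries the c1 haem. Uqcrfs1, the Rieske iron-sulfur protein, had 0.21. In F1 all 9 complex III estimates were below 0, between −0.36 for Uqcrh and −0.04 for Uqcrc1.

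Cycs, the mobile electron carrier that also triggers apoptosis when released from mitochondria (chr6:50562563-50566538, minus strand), rose in F2 stress mice. It had 175, 166, 144, 143 and 132 CPM in F2 stress mice, against 122, 129, 138, 127 and 122 CPM in F2 no-stress mice. All stress mice but mouse 15 lay above every no-stress mouse, and mouse 15 lay among them. The log2 fold change was 0.25 ± 0.08 (adjusted p = 0.0440; 0.11 and 0.631 with the offset), and the call was kept in 6 of the 20 fits that left out 1 mouse (F1 stress mouse 5, F1 no-stress mouse 7 or 8, F2 stress mouse 14 or 15, or F2 no-stress mouse 18), with adjusted p-values up to 0.147 in the other fits. In F1 it had 137, 143, 131, 133 and 149 CPM in stress mice, against 143, 144, 159.9, 139.8 and 140.1 CPM in no-stress mice, and the groups overlapped.

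In complex IV, Cox5a, a subunit on the matrix side, (chr9:57521274-57532426, plus strand), had 66.6, 64.4, 61.0, 59.9 and 73.2 CPM in F1 stress mice, against 73.3, 79.5, 87.4, 78.7 and 79.0 CPM in F1 no-stress mice. The groups did not overlap, by a narrow gap between stress mouse 5 and no-stress mouse 6. In F2 it had 89.5, 83.3, 82.9, 59.5 and 84.0 CPM in stress mice, against 66.6, 66.4, 76.1, 66.7 and 68.1 CPM in no-stress mice. All F2 stress mice but mouse 14 lay above every no-stress mouse, and mouse 14 lay below every one. The difference between the lineage effects was 0.51 ± 0.13 (adjusted p = 0.0437; 0.40 and 0.162 with the offset), from 0.22 ± 0.09 in F2 less −0.29 ± 0.09 in F1.

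Cox7b, a small single-helix subunit encoded on the X chromosome, had the smallest F1 p of the 40 genes. It had 80.3, 74.3, 66.7, 59.9 and 79.5 CPM in F1 stress mice, against 80.7, 89.2, 94.5, 95.6 and 94.8 CPM in F1 no-stress mice, again without overlap. The F1 log2 fold change was −0.33 ± 0.09 (95% interval −0.51 to −0.16, adjusted p = 0.739). In F2 the means were 81.6 ± 8.43 CPM in stress mice and 75.8 ± 5.96 CPM in no-stress mice. Cox6c, another small subunit of the membrane part, had 115, 107, 102, 88.6 and 128 CPM in F1 stress mice, against 127, 141, 134, 158 and 133 CPM in F1 no-stress mice, where only stress mouse 5 reached the no-stress range.

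The major and minor isoforms of complex IV were not called in either generation. Cox7a2 had 99.3, 75.7, 81.3, 67.1 and 103 CPM in F1 stress mice, against 92.3, 109, 121, 114 and 111 CPM in F1 no-stress mice, the lowest F1 estimate of the 40 (−0.36 ± 0.12, adjusted p = 0.739), though stress mice 1 and 5 lay within the no-stress range. Its relative Cox7a2l had 111, 105, 105, 99.7 and 129 CPM in F1 stress mice, against 116, 135, 125, 125 and 112 CPM in F1 no-stress mice, with stress mouse 5 above all no-stress mice but 1. Per kb, Cox7a2l stood at 78.2 ± 8.26% of Cox7a2 in F1 stress mice and 67.4 ± 6.95% in F1 no-stress mice, and at 70.8 ± 3.10% in F2 stress mice and 72.4 ± 3.69% in F2 no-stress mice (SD, n = 5 each), a ratio that was not tested. Cox7a1 had 1.21, 1.06, 0.861, 0.281 and 1.06 CPM in F2 stress mice, against 0.530, 0.370, 0.725, 0.576 and 0.938 CPM in F2 no-stress mice. Stress mice 11, 12 and 15 lay above every no-stress mouse and mouse 14 below every one, at levels near 1 CPM (0.50 ± 0.33, adjusted p = 0.364).

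For subunit 4, Cox4i1 had 239, 233, 208, 199.8 and 289 CPM in F1 stress mice, against 264, 292, 278, 324 and 241 CPM in F1 no-stress mice. In F2 it had 238, 213, 222, 206 and 343 CPM in stress mice, against 322, 246, 321, 265 and 225 CPM in no-stress mice. Both pairs overlapped, and F2 stress mouse 15 had the highest value of all. Cox4i2 had 0.642, 0.982, 0.574, 0.633 and 1.43 CPM in F2 stress mice, against 1.74, 1.78, 1.09, 1.23 and 0.721 CPM in F2 no-stress mice, with overlap and a wide error (−0.62 ± 0.34). For subunit 6a, the ubiquitous Cox6a1 had 104, 77.5, 73.2, 72.8 and 113 CPM in F1 stress mice, against 99.98, 101, 103, 136 and 104 CPM in F1 no-stress mice, and stress mice 1 and 5 lay in the no-stress range. The muscle form Cox6a2 had F2 means of 1.46 ± 0.8002 CPM in stress mice and 1.41 ± 0.489 CPM in no-stress mice (SD, n = 5 each). The other complex IV genes, the zinc-binding Cox5b and the small subunits Cox6b1, Cox7c and Cox8a, had F1 log2 fold changes between −0.27 and −0.16 and F2 ones between −0.20 and 0.07.

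The remaining values of these paralogs overlapped between lineages. Cox7a2 had 106, 98.3, 91.4, 81.3 and 121 CPM in F2 stress mice, against 101, 86.2, 98.3, 96.6 and 85.4 CPM in F2 no-stress mice, and stress mouse 15 was highest and stress mouse 14 lowest of the 10. Cox7a2l had 129.8, 112, 109, 101 and 136 CPM in F2 stress mice, against 117, 111, 125, 114 and 99.2 CPM in F2 no-stress mice, with the highest value again in stress mouse 15 but the lowest in no-stress mouse 20. The 2 genes were thus high in the same F2 stress mouse. Cox6a1 had 98.2, 95.8, 94.2, 65.4 and 149 CPM in F2 stress mice, against 136, 95.8, 127, 102 and 89.5 CPM in F2 no-stress mice, and the stress values enclosed those of all no-stress mice. Cox6a2 had 0.927, 1.28, 1.08, 1.13 and 2.87 CPM in F2 stress mice, against 1.59, 1.19, 2.18, 1.15 and 0.938 CPM in F2 no-stress mice. It had 1.36, 1.14, 1.07, 0.930 and 1.75 CPM in F1 stress mice, against 1.79, 1.75, 1.06, 1.49 and 1.45 CPM in F1 no-stress mice, and the ranges shared most of their width in both generations. Cox7a1, at 0.453, 0.640, 0.572, 0.358 and 0.874 CPM in F1 stress mice, against 0.715, 0.583, 0.528, 0.522 and 0.459 CPM in F1 no-stress mice, stayed below 1 CPM in every F1 library. Cox4i2 had 0.604, 0.924, 1.07, 1.22 and 1.24 CPM in F1 stress mice, against 0.858, 0.510, 0.755, 1.34 and 1.68 CPM in F1 no-stress mice, and the stress values all lay within the no-stress range.

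Among the genes counted with ATP synthase by name, Atp5s rose in F2 stress mice and was the least abundant (chr12:69724950-69744660, plus strand). It had 16.3, 15.3, 16.1, 14.1 and 15.9 CPM in F2 stress mice, against 11.7, 12.1, 12.2, 12.4 and 14.1 CPM in F2 no-stress mice. The groups touched but did not overlap, between stress mouse 14 and no-stress mouse 20. The log2 fold change was 0.31 ± 0.08 (adjusted p = 0.0185), and with the offset 0.18 (adjusted p = 0.289). Leaving out F2 stress mouse 11 or F2 no-stress mouse 16 or 17 ended the call, with adjusted p-values up to 0.0637. In F1 it had 13.2, 14.6, 12.8, 12.9 and 13.3 CPM in stress mice, against 14.6, 13.99, 14.9, 13.6 and 15.1 CPM in no-stress mice, and the groups overlapped. The difference between generations was 0.42 ± 0.11 (adjusted p = 0.0435; 0.27 and 0.245 with the offset).

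Atp5c1, the gamma subunit that forms the rotating shaft (chr2:10056016-10080510, minus strand), had 160.4, 156, 148, 147 and 179 CPM in F1 stress mice, against 167, 186, 199, 182 and 186 CPM in F1 no-stress mice. In F2 it had 209, 178, 186, 151 and 191 CPM in stress mice, against 159, 137, 172, 150.3 and 146 CPM in no-stress mice. The groups overlapped in both generations, and of the stress mice, mouse 5 in F1 and mouse 14 in F2 lay within the no-stress range. The difference was 0.48 ± 0.12 (adjusted p = 0.0429; 0.35 and 0.185 with the offset). Atp5j, coupling factor 6 of the peripheral stalk, came next among the 40 with a difference of 0.47 ± 0.13 (adjusted p = 0.0558). It had 95.2, 86.1, 85.8, 69.8 and 95.9 CPM in F1 stress mice, against 95.4, 102, 109, 98.8 and 106 CPM in F1 no-stress mice, where stress mouse 5 alone passed the lowest no-stress mouse. In F2 it had 117, 102, 102, 91.8 and 106 CPM in stress mice, against 92.2, 74.6, 102, 86.3 and 88.4 CPM in no-stress mice, and stress mice 11, 12, 13 and 15 lay above every no-stress mouse, mice 12 and 13 by a narrow gap.

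The 3 c-ring genes differed in their estimates, although none was called. Atp5g3 had 189.9, 175, 166, 145 and 186 CPM in F2 stress mice, against 156, 143, 163, 146 and 139 CPM in F2 no-stress mice, with a log2 fold change of 0.21 ± 0.08 (adjusted p = 0.114). Atp5g1 had 95.5, 87.8, 81.0, 78.8 and 112 CPM in F2 stress mice, against 102, 102, 105, 93.5 and 76.7 CPM in F2 no-stress mice (−0.07 ± 0.11). Atp5g2, whose reads may be shared with its copies, had 57.0, 56.2, 47.2, 65.1 and 67.1 CPM in F2 stress mice, against 66.6, 64.3, 77.6, 61.8 and 51.9 CPM in F2 no-stress mice (−0.14 ± 0.12). All 3 pairs overlapped. In F1, Atp5g3 had 167, 139, 149, 138 and 166 CPM in stress mice, against 155, 176, 177, 174 and 172 CPM in no-stress mice, and Atp5g1 had 83.2, 86.0, 85.8, 92.9 and 111 CPM in stress mice, against 94.7, 97.3, 95.1, 106 and 79.6 CPM in no-stress mice, both with overlap. In F1, Atp5g2 had 60.02 ± 9.10 CPM in stress mice and 57.6 ± 5.53 CPM in no-stress mice (SD, n = 5 each), and with Cox7a1 it was the exception to the lower estimates. The catalytic head genes had F1 estimates of −0.16 for Atp5b and −0.08 for Atp5a1 and F2 estimates of 0.13 and 0.10. Atp5d, the delta subunit of the central stalk and the most GC-rich of the 40, had the lowest F2 estimate of this complex, −0.42 ± 0.15 (adjusted p = 0.0837), and near 0 with the offset. The other stalk and membrane genes, Atp5e, Atp5f1, Atp5h, Atp5j2, Atp5k, Atp5l and Atp5o, had F1 estimates between −0.35 and −0.11 and F2 estimates between −0.13 and 0.22.

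**Figure D4:**
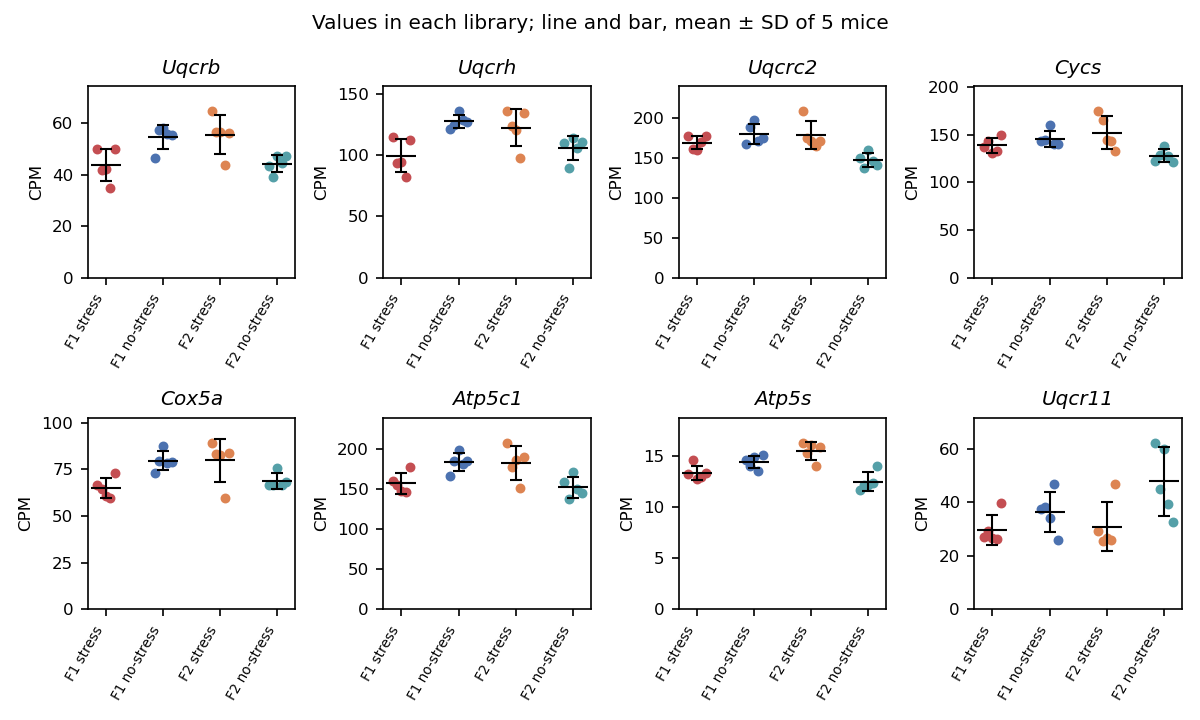
CPM in each library (points) for 8 genes that lead the comparisons, with stress left of no-stress mice, first in F1 and then in F2; the line and bar are the mean ± SD of 5 mice. Uqcrb, Uqcrh, Cox5a and Atp5c1 are lower in stress than in no-stress mice in F1 and higher in F2, on average, while Uqcr11 is lower in stress mice in both.

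Generations were also set against each other within a lineage. Between F2 and F1 stress mice, 0 of the 40 genes were called, against 0.012% of all genes, and 35 of 40 estimates were above 0, against 52.1% of all genes, with a median of 0.18. In the same comparison 12 of 12 striatal markers were above 0 (median 0.40), as were 11 of 11 microglia markers (0.18), 8 of 10 oligodendrocyte markers (0.35) and 8 of 10 endothelial markers (0.20), with no gene of these lists called by edgeR. Their part in the estimates of the 40 genes was not tested. At an unadjusted p below 0.05 there were 13 of the 40, all higher, against 4.28% of all genes higher at that level, and DESeq2 and limma-voom called 0. The smallest p was that of Uqcrb, with 55.5 ± 7.54 CPM in F2 stress mice and 43.7 ± 6.30 CPM in F1 stress mice (log2 fold change 0.35 ± 0.11, adjusted p = 0.643). Cox5a, Uqcrh, Atp5j2, Atp5j and Atp5s followed with log2 fold changes between 0.21 and 0.31. Atp5j2, subunit f of the membrane part, had 91.3, 74.8, 79.0, 72.9 and 97.1 CPM in F2 stress mice, against 70.3, 66.8, 62.9, 54.6 and 80.2 CPM in F1 stress mice. Without F2 stress mouse 14, 1 of the 40 was called (share of all genes not given here), and without F2 stress mouse 15 the median was 0.10.

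Between F2 and F1 no-stress mice, 1 of the 40 genes fell, Uqcrc2, against 2% of all genes called and 0.532% called lower. It had 149.8, 138, 161, 147 and 142 CPM in F2 no-stress mice, against 167, 189.9, 198, 172 and 176 CPM in F1 no-stress mice, and the groups did not overlap. The log2 fold change was −0.29 ± 0.07 (adjusted p = 0.0456; −0.19 and 0.303 with the offset), and the call was kept in 5 of the 20 fits that left out 1 mouse (F1 no-stress mouse 6, F2 stress mouse 11, 14 or 15, or F2 no-stress mouse 18), with adjusted p-values up to 0.151 in the other fits. Groups did not overlap for 4 of the 40, Uqcrc2, Uqcrh, Cycs and Atp5h, all lower in F2, against 1.99% of all genes. Next by p came Atp5c1, Atp5f1, Cox7b and Uqcrb, with log2 fold changes between −0.31 and −0.25 and adjusted p-values from 0.0915 to 0.113. Atp5f1, subunit b of the peripheral stalk, had 146, 132, 156, 149 and 135 CPM in F2 no-stress mice, against 154, 172, 182, 174 and 169 CPM in F1 no-stress mice, where 1 F2 value exceeded the lowest F1 value. The median over the 40 was −0.11, with 28 below 0, against 47.5% of all genes. In the same comparison 11 of 12 striatal markers were below 0 (median −0.27), while 9 of 10 oligodendrocyte markers (0.24) and 7 of 10 endothelial markers (0.18) were above 0. Of the 10 endothelial markers 1, Cldn5, was called higher, against 246 of the 16727 genes tested. Its log2 fold change was 0.60 (edgeR, adjusted p = 0.0415), and with the offset 0.30 (adjusted p = 0.381). The part of these lists in the estimates of the 40 genes was not tested. These 2 comparisons share their libraries with the lineage comparisons above.

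The estimates followed base composition in some comparisons and not in others. Transcript GC content ran from 39.6% for Atp5s to 61.1% for Atp5d, with a median of 51.6%. Across the 40 genes, Spearman's rho between the log2 fold change and GC content was 0.08 for F1 stress against F1 no-stress, −0.61 for F2 stress against F2 no-stress and 0.71 for F2 against F1 no-stress. Over 16692 genes the same values were 0.00, −0.56 and 0.49, so the relation was not limited to the respiratory genes. For the difference of lineage effects between generations, rho was −0.55 over the 40 and −0.44 over the 16692. For F2 against F1 stress mice it was −0.26 and −0.20. In F2 the median log2 fold change was 0.21 for the 14 genes under 50% GC and 0.04 for the 26 at or above it. In F1 the 2 medians were −0.21 and −0.24. For the difference between generations they were 0.40, with 14 of 14 above 0, and 0.20, with 18 of 26 above 0. The 7 genes called in any comparison had a GC content between 39.6% and 49.2%, all below the median, and Uqcr11 had 58.9%.

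Per library, the difference in median deviation between the highest and the lowest of 10 bins of genes by GC content was −0.40 to 0.20 in F2 stress mice and −0.08 to 0.63 in F2 no-stress mice. It was −0.27 to 0.11 in F1 stress mice and −0.39 to 0.14 in F1 no-stress mice. With an offset for each library's own trend with GC content and length, none of the 40 was called in any of the 5 comparisons. The direction of the F1 pattern was kept, with 38 of 40 below 0 and a median of −0.19. In F2, 30 of 40 were then above 0, with a median of 0.11, and rho with GC content was 0.01. For the difference between generations 34 of 40 were above 0 with the offset, with a median of 0.28. For F2 against F1 stress mice 36 were above 0 (median 0.13), and for F2 against F1 no-stress mice 32 were below 0 (−0.13).

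**Figure D5:**
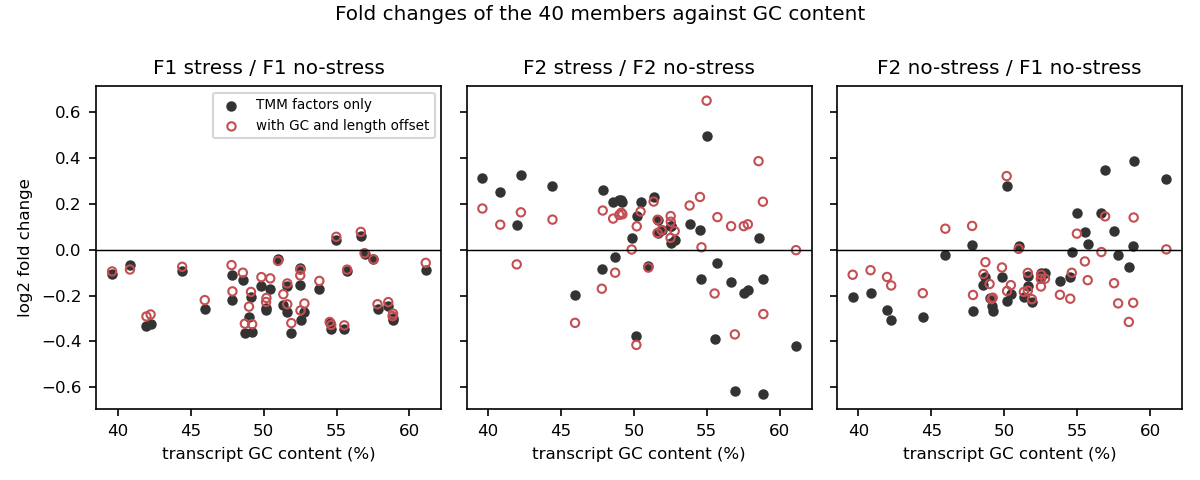
Log2 fold change of each of the 40 genes against the GC content of its transcript, for F1 stress over F1 no-stress, F2 stress over F2 no-stress and F2 no-stress over F1 no-stress; filled points are without and open red points with the GC and length offset. Filled points slope down in the middle panel (rho −0.61), slope up in the right panel (rho 0.71) and are flat and below 0 in the left panel (rho 0.08).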

How the data were processed

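RNA of 20 amygdala samples was sequenced after poly-A enrichment with a stranded kit, per the labels. The authors deposited 1 table of raw-looking counts, whole numbers per gene and mouse, for 29671 genes. The submitters' processing notes name STAR 2.5.3a and the mouse build GRCm38. How reads were counted (tool, annotation, strand, multiple mapping) is not given in the sources used here, so reads of overlapping genes cannot be assigned with certainty. Column totals differ by far less than sequencing yields do, so the counts seem to have been brought to a common total and the depth before that is unknown.

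Genes were kept by filterByExpr, and 16727 were fitted in 1 model with a mean per group over all 20 libraries (edgeR 4.0.16 quasi-likelihood F test, robust, TMM factors 0.956 to 1.04, R 4.3.3). Genes with an adjusted p (Benjamini-Hochberg over all genes tested) below 0.05 were called. Log2 fold changes carry the SE of the fit. CPM are counts scaled by each column's total over the genes kept, times its TMM factor. Transcript length and GC content were taken from GENCODE M21 for 16692 genes, pseudogene copies were found with BLAST 2.17.0, and promoters came from RefSeq. Motifs were searched first with any base at the sixth position of the NRF1 core (8 of 31 genes, 5.19% of all genes) and a longer YY1 word (0 of 31, 0.755% of all), and the motifs reported were chosen after those matches were seen. The test was checked on simulated data. The alternatives were DESeq2 1.42.0, limma-voom (limma 3.58.1), other scalings and filters, only the groups compared, an offset for GC content and length (splines with 5 degrees of freedom), 1 surrogate variable (sva 3.50.0), removal of mitochondrial genes, and each library left out. The removal of 2 libraries together was added after seeing the data. Genes described in each library were those called in a comparison, the 6 with the smallest p where fewer were called, and all paralog sets. The genes, lists and tests were chosen with earlier results of these data known.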

Additional observations from a re-analysis of the deposited data

Results flagged for a closer look

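Of 164 sets of 5 values, 1 for each gene and group and 4 for summary measures, 13 held a mouse set apart from the other 4, with a gap to its nearest neighbour of over 0.71 of the whole range. Chance alone marks about 1 in 20 such sets.

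F1 stress mouse 5 had 824 CPM of Atp5a1, against 724 to 749.7 CPM in the other 4 (gap ratio 0.748). The same mouse had 39.7 CPM of Uqcr11, against 26.1 to 29.3 CPM in the other 4 (gap ratio 0.761). F1 no-stress mouse 9 had 53.4 CPM of Atp5e, against 38.9 to 42.1 CPM in the other 4 (gap ratio 0.778). The same mouse had 136 CPM of Cox6a1, against 99.98 to 104 CPM in the other 4 (gap ratio 0.898). F1 no-stress mouse 6 had 155 CPM of Atp5g3, against 172 to 177 CPM in the other 4 (gap ratio 0.789). The same mouse had 46.6 CPM of Uqcrb, against 55.3 to 57.9 CPM in the other 4 (gap ratio 0.770). F1 no-stress mouse 8 had 159.9 CPM of Cycs, against 139.8 to 144 CPM in the other 4 (gap ratio 0.797). F2 stress mouse 15 had 343 CPM of Cox4i1, against 206 to 238 CPM in the other 4 (gap ratio 0.767). The same mouse had 2.87 CPM of Cox6a2, against 0.927 to 1.28 CPM in the other 4 (gap ratio 0.816). The same mouse had 47.0 CPM of Uqcr11, against 25.7 to 29.2 CPM in the other 4 (gap ratio 0.837). F2 stress mouse 14 had 59.5 CPM of Cox5a, against 82.9 to 89.5 CPM in the other 4 (gap ratio 0.781). F2 stress mouse 11 had 209 CPM of Uqcrc2, against 165 to 176 CPM in the other 4 (gap ratio 0.763). F2 no-stress mouse 18 had 76.1 CPM of Cox5a, against 66.4 to 68.1 CPM in the other 4 (gap ratio 0.828).

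The effect of lineage differed between F2 and F1 for 5 genes by the test of the difference itself in edgeR (adjusted p below 0.05). The difference on the log2 scale was 0.65 for Uqcrb, 0.57 for Uqcrh, 0.51 for Cox5a, 0.48 for Atp5c1 and 0.42 for Atp5s. None of the 5 was called with the GC and length offset.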

How the results depend on the processing

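In no setting did a median over the 40 genes change direction. The counts of calls below lack the share of all genes called in the same setting. They are thus not read as particular to the 40 genes. For F2 stress against F2 no-stress, the 3 calls became 6 with DESeq2, 7 with 1 surrogate variable, 0 without a filter on low counts, 0 with only the groups compared and 0 with the GC and length offset. Leaving out 1 library gave 0 to 9. For the difference between generations, the 5 calls became 13 with DESeq2, 1 without the filter and 0 with the offset, and leaving out 1 library gave 0 to 14. Within the stress lineage, leaving out 1 library gave 0 to 1. Within the no-stress lineage, the 1 call became 2 with DESeq2 and 0 with library totals, without the filter, with only the groups compared and with the offset, and leaving out 1 library gave 0 to 1. Leaving out F2 stress mouse 14 and F2 no-stress mouse 20 together, a setting chosen after seeing the data, gave 10, 13, 1 and 0 calls in these 4 comparisons. F1 stress against F1 no-stress had 0 calls in every setting run. The cause of these changes was not tested. No paired analysis was possible because each mouse has its own replicate number, 1 to 20, and no number is shared between groups. The depth before the counts were brought to a common total is unknown, so counting error per gene cannot be stated.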

Other observations

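Genes related to the 40 were followed by lists. A list of other nuclear subunits and rare paralogs of complex IV and ATP synthase held 5 tested genes. In F1, 4 of the 5 were below 0, with a median log2 fold change of −0.30. The medians were 0.18 in F2 and 0.48 for the difference between generations. For that difference 1 was called higher, against 0.837% of all genes. It was 2010107E04Rik, at 0.70 (edgeR, adjusted p = 0.0331), and 0.60 with the GC and length offset (adjusted p = 0.143). Of 32 tested assembly factors of complexes III, IV and ATP synthase, 27 had estimates below 0 in F1 stress against F1 no-stress mice, with a median log2 fold change of −0.13. In F2 the median was 0.06, and 1 of the 32 was called, against 7.92% of all genes, Cox17, the copper carrier for complex IV, which fell in F2 stress mice, at a log2 estimate of −0.46 (edgeR, adjusted p = 0.0140; −0.54 and 0.0865 with the GC and length offset). Of 13 citric acid cycle enzymes, 3 rose in F2 stress mice, against 2.64% of all genes called higher: Dld, the shared E3 subunit, by 0.28, Sucla2, a succinyl-CoA ligase subunit, by 0.30, and Fh1, fumarase, by 0.24 on the log2 scale, and none of the 3 was called with the offset. Of 11 transcription factors and coactivators of respiratory genes, 1 fell in F2 stress mice, against 5.28% of all genes called lower. It was Esrra, a nuclear receptor that drives such genes, at an estimate of −0.73 (edgeR, adjusted p = 0.0492; −0.27 and 0.507 with the offset). The other 10 were not called.

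Among 36 tested complex I subunits, 1 was called in F2, Ndufb7, which fell in stress mice, against 5.28% of all genes called lower. Its log2 fold change was −0.54 (edgeR, adjusted p = 0.0442; 0.398 with the offset). For the difference between generations, 2 of 36 were called higher, against 0.837% of all genes. These were Ndufs4 and Ndufv2, subunits of the NADH-oxidizing arm. Their lineage effect was higher in F2 than in F1 by 0.64 and 0.49 on the log2 scale (edgeR, adjusted p = 0.0445 and 0.0480; 0.246 and 0.283 with the offset). The list median was 0.03 in F2 and 0.21 for the difference. The 6 mitochondrially encoded subunits of complexes III, IV and ATP synthase had medians of −0.01 in F2 and 0.27 for the difference. Cytosolic ribosomal proteins had medians of −0.03 in F2 and 0.15 for the difference. In F2, 1 of 79 fell, against 5.28% of all genes called lower: Rpl36, at a log2 estimate of −0.93 (edgeR, adjusted p = 0.0434; 0.185 with the offset). For the difference, 5 of 79 were called higher, against 0.837% of all genes, and the 4 with the smallest p, Rps24, Rpl39, Rpl7 and Rpl5, had adjusted p-values of 0.178, 0.149, 0.223 and 0.396 with the offset.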
